A study of Saccharomyces cerevisiae with 36 samples.

Results

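The comparison described here follows strain 12, the dominant wine strain of Saccharomyces cerevisiae, through a mixed culture with the non-dominant strain 11, from 12 h to 20 h of fermentation. Its members are the 3 libraries labelled strain 12, mixed culture, 20 h and the 3 labelled strain 12, mixed culture, 12 h, that is, 6 of the 36 libraries of the series, chosen by their labels alone. Both strains were inoculated at equal density into natural must of Nebbiolo grapes and grown at 25 °C with shaking, each strain carrying a green or a sapphire fluorescent protein under the constitutive GPD promoter so that frozen cells could later be separated by flow cytometry. The study placed the 12 h sample early in exponential growth, when both strains were present, and the 20 h sample in mid-exponential growth, when strain 12 began to pass strain 11 in number. The RNA of the sorted cells was scarce and was amplified, and the libraries were read on a SOLiD instrument. All groups share the must, the temperature, the sorting and the amplification. The fluorescent proteins were swapped between the strains in the study, and the labels do not say which of them the cells of a library carried. The same interval in other libraries serves as comparison: strain 12 grown alone and strain 11 from the mixed cultures, with 3 libraries per time each.

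Growing yeast spends much of its transcription on ribosomal proteins and on the factors that assemble ribosomes, and both are turned down together when growth slows or the cell is stressed. A common stress response then raises chaperones, trehalose and glycogen enzymes and antioxidant enzymes, in part through the factors Msn2 and Msn4, which bind AGGGG in promoters, and Hsf1. In grape must, yeast takes up preferred nitrogen compounds first, represses the use of others through nitrogen catabolite repression, and changes its wall, its membrane and its proton pump as sugar is turned into ethanol.

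Levels are read counts of a gene scaled to a common library total with TMM factors (CPM), in the order of replicates 1, 2 and 3, and compare a gene between libraries, not genes with each other. Genes were tested with edgeR's quasi-likelihood test and counted as differing at a p of 0.05 or less after Benjamini-Hochberg adjustment over all genes tested. Every adjusted p and every log2 change with its standard error (SE, n = 3 per group) comes from that fit. The libraries held 148542, 218761 and 241419 reads on genes at 12 h and 341452, 227200 and 123119 at 20 h, so low levels rest on few reads. Correlations of log CPM were 0.888 to 0.933 between replicates and 0.68 to 0.769 between the times. SSU1, the sulfite pump, and YHB1, the nitric oxide oxidoreductase, separated the strains: they had 444 to 1435 and 418 to 1067 CPM in the 6 libraries against 0 to 25.8 and 0 to 77.5 CPM in strain 11 grown alone. Reads on the genes YLR227W-B, YNL284C-A and YNL284C-B, which mark strain 11, amounted to 0, 0 and 9.47% of its own level at 12 h (the zeros allow up to 11.7% and 7.55%) and to 7.15, 3.58 and 10.1% at 20 h, from 0, 0, 4, 6, 2 and 3 reads. These markers are retrotransposon genes, a class that the study describes as variable among strains. YNL284C-A and YNL284C-B belong to one element, so their reads may not be independent. The shares assume that the level of the markers in strain 11 is known and stays the same in mixed culture, which was not tested. The part of strain 11 RNA in the results was not tested, apart from the values given with the strain comparison. In such bulk RNA, fewer cells of a kind and less RNA per cell cannot be told apart. The labels do not tie the triplicates to separate fermentations one by one, so p-values measure the spread between these samples, which may be partly technical.

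Of 6717 genes, 3670 passed the filter on low counts, and 873 of them (23.8%) differed between the times. The number higher at 20 h was 425 (11.6%) and the number lower 448 (12.2%), with medians of 1.59 and -1.70 on the log2 scale. At least 4-fold changes were seen in 130 genes that rose and 164 that fell. The libraries of the times did not overlap for 849 of the 873 genes, and for 1553 (42.3%) of all genes tested. A limma test on log2(RPKM + 1) gave a different balance, with 356 genes higher and 183 lower, and RLE scaling moved the median change of all genes by -0.112 and the RPKM scale by 0.209, so that list medians are read against the median of 0.07 of all genes tested. The plot of the members of each gene list shows ribosomal proteins at one end and trehalose, heat shock and fatty acid oxidation genes at the other.

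**Figure D1:**
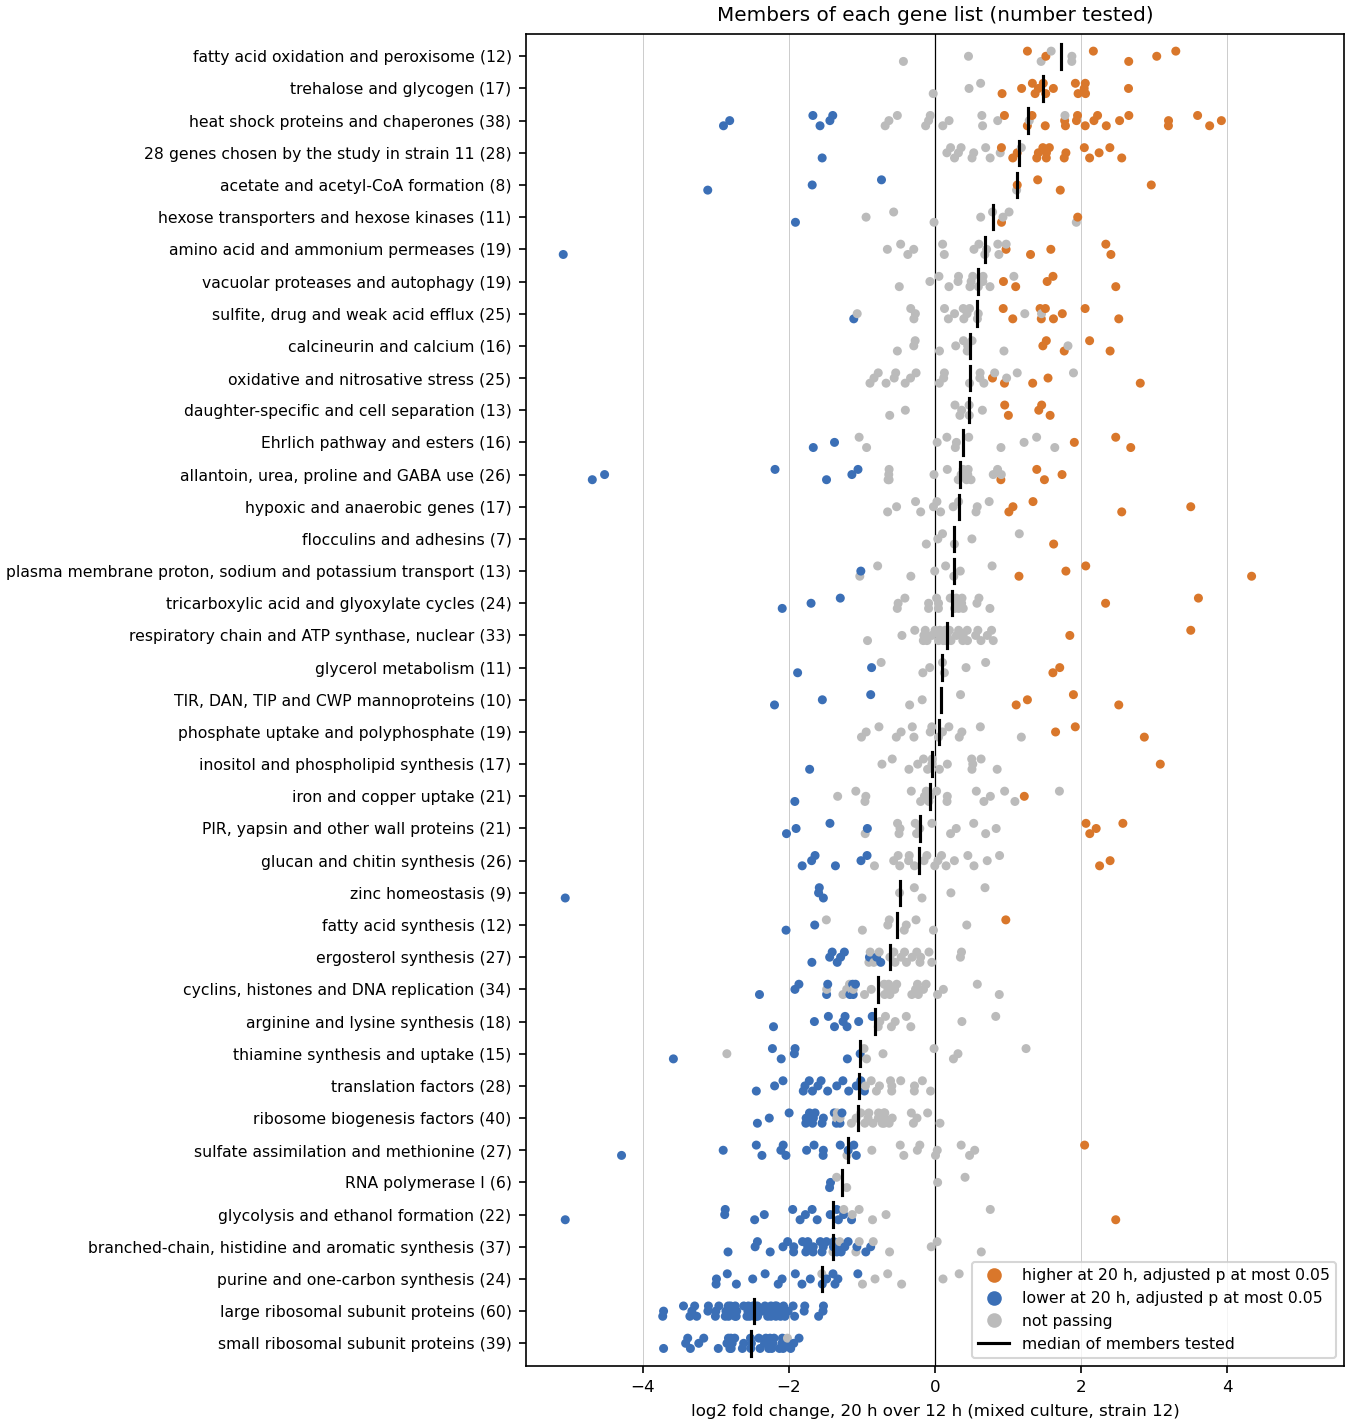
Log2 fold change (20 h over 12 h, strain 12 in mixed culture) of every tested member of 41 gene lists, with coloured points for members that passed the test and a bar at the list median. The medians run from -2.52 (small ribosomal subunit proteins) to 1.73 (fatty acid oxidation and peroxisome).

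The largest rises among well-counted genes were in a proton pump, chaperones and membrane proteins of stressed cells. PMA2, which encodes the minor isoform of the plasma membrane proton ATPase, had 178, 160.3 and 160.1 CPM at 12 h and 5386, 2664 and 2011 CPM at 20 h. Every 20 h library was thus above every 12 h library, and the change was 4.34 ± 0.43 on the log2 scale (SE, n = 3 per time, adjusted p = 2.1e-11). PMA1, the main isoform, fell in the same libraries, from 25165, 21431 and 12457 CPM to 9193, 9864 and 10144 CPM (-1.02 ± 0.31, adjusted p = 0.011), and reads could be split wrongly between these close paralogs. HSP30, a membrane protein that restrains the proton ATPase under stress, had 194, 280.5 and 127 CPM at 12 h and 3615, 2332 and 3208 CPM at 20 h (3.92 ± 0.36, adjusted p = 9.9e-13). BTN2, which helps to sort misfolded proteins, rose from 46.5, 65.1 and 28.3 CPM to 927, 547 and 423 CPM (3.76 ± 0.53, adjusted p = 1.7e-07). HSP26, a small heat shock protein, rose from 62, 30.1 and 28.3 CPM to 579.6, 354 and 464 CPM (3.60 ± 0.46, adjusted p = 2.9e-08). HSP30, BTN2 and HSP26 were thus low in all 12 h libraries and high in all 20 h libraries. The choice of the 12 largest rises, PMA2 among them, required that the times did not overlap. FMP45, a membrane protein of the SUR7 family, rose by 3.59 (from 109, 270.5 and 104 CPM to 2800.4, 1944 and 1156 CPM), and its relative YNL194C by 2.90. HSP12 (a small protein that protects membranes), SSA4 (a stress-induced Hsp70) and HBT1 (a protein of polarized growth) each rose by 3.20. INO1, the first enzyme of inositol synthesis, rose from 69.8, 40.1 and 56.5 CPM to 430.4, 634 and 326 CPM (3.09 ± 0.42, adjusted p = 7.6e-08). ALD3, an aldehyde dehydrogenase of the stress response, rose by 2.96, and PHM7, a membrane protein regulated by phosphate, by 2.87.

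**Figure D2:**
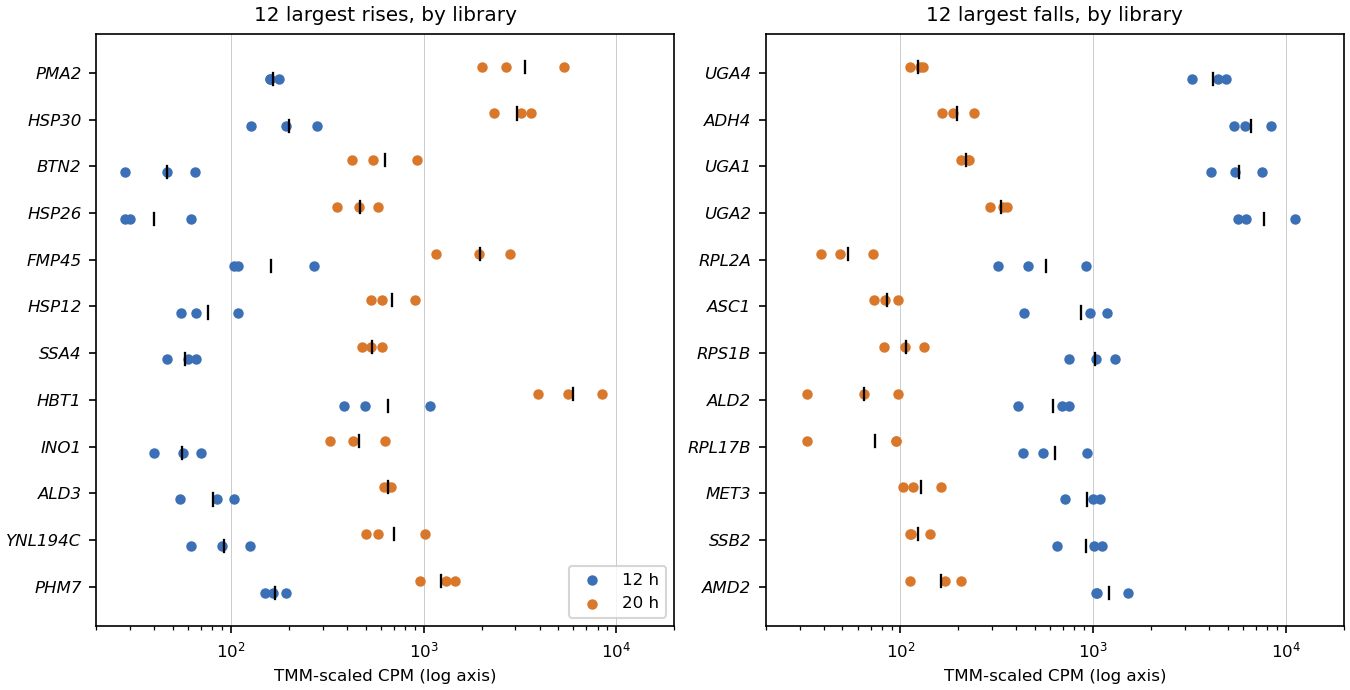
TMM-scaled CPM (log axis) of the 12 genes with the largest rise and the 12 with the largest fall, 1 point per library and a bar at each mean of 3 libraries. PMA2 lies between 160.1 and 178 CPM at 12 h and between 2011 and 5386 CPM at 20 h, while UGA4 lies between 3245 and 4901 CPM at 12 h and between 112 and 130.3 CPM at 20 h.

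For PMA2 and HSP12, 120 bases before the start with matches to AGGGG, the Msn2 and Msn4 element, are shown because that element was frequent among the genes that rose. They run from 250 to 131 bases before the start codon in the R64 reference genome of RefSeq, not the sequence of strain 12, with AGGGG or its reverse complement in capitals. The stretch of PMA2 is at chrXVI:482593-482712, plus strand, and that of HSP12 at chrVI:107006-107125, plus strand.
PMA2: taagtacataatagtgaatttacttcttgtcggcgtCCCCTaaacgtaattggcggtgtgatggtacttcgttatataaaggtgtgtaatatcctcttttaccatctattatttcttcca
HSP12: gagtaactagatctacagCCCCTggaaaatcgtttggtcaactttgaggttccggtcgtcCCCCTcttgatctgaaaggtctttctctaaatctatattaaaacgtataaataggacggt
Over windows of 300 bases (250 before to 50 after the start, both strands searched), AGGGG was found in 43.2% of the genes higher at 20 h and in 14.6% of those lower, against 25.1% of all genes tested. Among the trehalose and glycogen genes the share was 52.9%. A window could hold several of the motifs searched, and a match is no more than these letters.

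The largest falls were in the use of γ-aminobutyrate (GABA), in an alcohol dehydrogenase and in ribosomal proteins. UGA4, the GABA permease (sacCer2, chrIV:84271-85986), had 4901, 4473 and 3245 CPM at 12 h and 126, 112 and 130.3 CPM at 20 h, a change of -5.09 ± 0.39 (adjusted p = 6.3e-15). UGA1, the GABA transaminase, fell from 7491, 4117 and 5459 CPM to 207, 224 and 228 CPM (-4.69 ± 0.43, adjusted p = 9.9e-13). UGA2, the dehydrogenase that completes the conversion of GABA to succinate, fell from 11167, 6200.4 and 5685 CPM to 341, 358 and 293 CPM (-4.53 ± 0.37, adjusted p = 3.5e-14). All steps of the pathway were high in every 12 h library and low in every 20 h library. ADH4, an alcohol dehydrogenase known for its rise when zinc is short (sacCer2, chrVII:15159-16307), fell from 8337, 6175 and 5364 CPM to 164, 241 and 187 CPM (-5.07 ± 0.43, adjusted p = 6.8e-14). ALD2, the neighbour and close paralog of ALD3, had 752, 686 and 409.7 CPM at 12 h and 97.6, 64.7 and 32.6 CPM at 20 h and fell by 3.11 on the log2 scale, in the opposite direction to ALD3, although reads can be split between the copies. RPL2A, RPS1B and RPL17B, proteins of the ribosome, changed by -3.36, -3.24 and -3.01, ASC1, a protein of the small subunit with a signalling role, by -3.35, and SSB2, the Hsp70 that binds nascent chains at the ribosome, by -2.90. MET3, the first enzyme of sulfate assimilation, changed by -2.90, and AMD2, a putative amidase, by -2.89. The plot of the 24 genes by library shows no overlap between the times for any of them, which the choice of these genes required.

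The genes of the ribosome formed a uniform group. Of 81 genes for proteins of the large subunit, 60 passed the filter and all 60 fell, with a median of -2.48 and single genes from -3.73 to -1.53. Of 57 genes for the small subunit, 39 passed and 38 fell, with a median of -2.52. Members that did not pass had 503 reads at 12 h and 146 at 20 h (large subunit, lower mean CPM at 20 h in 19 of 21 genes) and 528 and 144 reads (small subunit, lower in 18 of 18). RPL3, a single-copy gene of the large subunit, had 2598, 1402 and 2166 CPM at 12 h and 316, 323 and 415 CPM at 20 h (-2.56 ± 0.33, adjusted p = 3e-08). It was chosen after its values were seen, because most other members have a near-identical copy between which reads can be split. RPL43B had 519.6, 295 and 476 CPM at 12 h and 23, 25.9 and 57 CPM at 20 h (-3.73), RPL26B changed by -3.45 and RPL30 by -3.72. RPS22A, RPS25A and RPS11A changed by -3.72, -3.42 and -3.39. With limma on log2(RPKM + 0.1), 24 and 20 members of the lists fell.

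Of 40 tested ribosome biogenesis factors (63 listed), 15 fell and 0 rose, with a median of -1.05. NSR1, a nucleolar protein of rRNA processing, had 427, 341 and 316 CPM at 12 h and 109, 51.7 and 16.3 CPM at 20 h (-2.43 ± 0.47, adjusted p = 5.3e-05), and it overlaps YGR160W. CBF5, the pseudouridine synthase of rRNA, fell by 2.27 on the log2 scale, and NOP1, the rRNA methyltransferase, had 845, 471 and 914 CPM and 289.8, 116 and 130.3 CPM (adjusted p = 0.00057). RPA190 (-1.44) and RPA135 (-1.43), the core subunits of RNA polymerase I, fell, and the other 4 tested subunits did not pass. RPA14, which overlaps YDR157W, had 101, 140.2 and 80.1 CPM and 91.8, 108 and 138 CPM. Of 28 tested translation factors (34 listed), 16 fell and 0 rose (median -1.05), among them TEF1 (-2.45), TEF4 (-2.20), both of elongation, and STM1 (-2.08), which binds ribosomes. The count of translation factors was 9 without 20 h replicate 1, that of biogenesis factors was 7 without the shallowest library of each time, and limma on log2(RPKM + 0.1) gave 8 and 3. GATGAG, the PAC element known from the promoters of these factors, was in 92.5% of the windows of the 40 biogenesis factors, against 18.1% of all genes tested and 20.2% of the genes lower at 20 h. The window of NSR1, the largest fall of that list with a match, is shown for this reason, with the element in capitals in the reverse direction (R64, chrVII:807787-807906, minus strand, from 250 to 131 bases before the start).
NSR1: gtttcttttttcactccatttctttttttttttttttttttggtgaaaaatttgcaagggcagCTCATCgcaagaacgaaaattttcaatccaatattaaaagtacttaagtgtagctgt

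**Figure D3:**
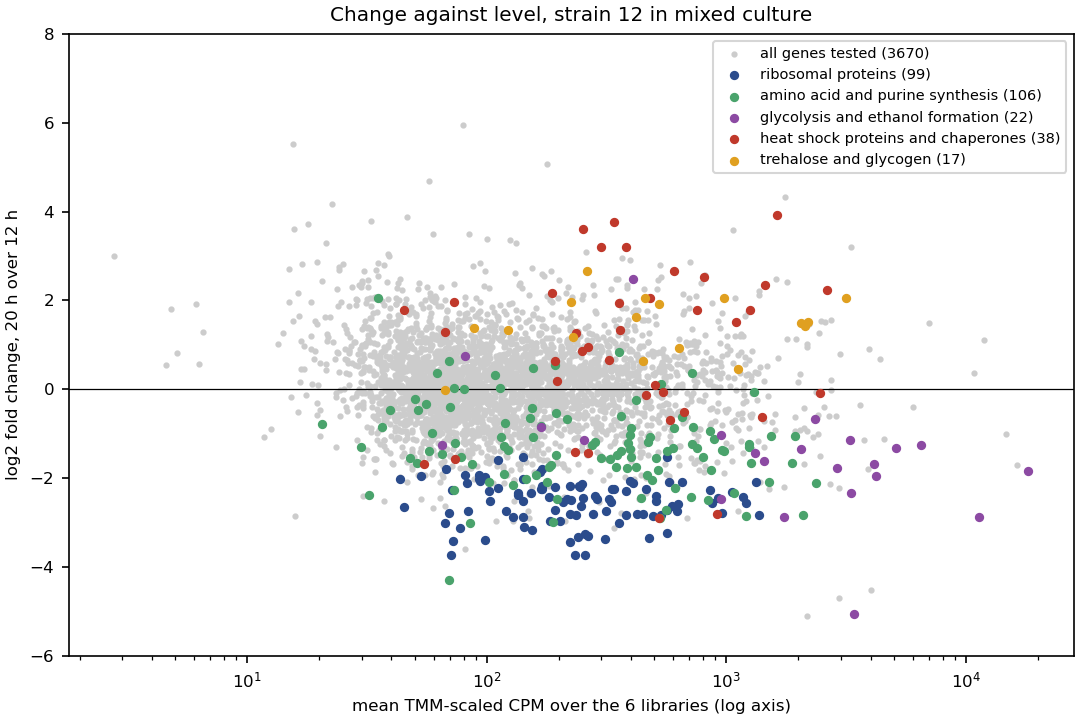
Log2 fold change (20 h over 12 h) against the mean TMM-scaled CPM of the 6 libraries (log axis) for the 3670 genes tested, with 5 groups of genes in colour. The 99 ribosomal proteins lie at every level below 0, whereas trehalose and glycogen genes lie above it with 1 exception at -0.02.

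Glycolysis and ethanol formation, the main route of sugar in must, were lower at 20 h, while acetate and glycerol enzymes went both ways. All 22 listed genes were tested, and 15 fell and 1 rose (median -1.39). TDH2 (glyceraldehyde-3-phosphate dehydrogenase) had 23676, 16192 and 19818 CPM at 12 h and 2031, 2509 and 3623 CPM at 20 h (-2.87 ± 0.37, adjusted p = 2.3e-08). ENO1 (-1.44), an enolase, lost its call without 12 h replicate 1, and its paralog ENO2 had 3909, 1618 and 3659 CPM and 318, 375 and 569.9 CPM (-2.88 ± 0.41, adjusted p = 1.7e-07). CDC19 (pyruvate kinase) changed by -1.85 and PDC1 (the main pyruvate decarboxylase) by -1.95. PDC6, the minor pyruvate decarboxylase, was the member that rose, from 139.6, 100.2 and 132 CPM to 700.1, 673 and 692 CPM (2.48 ± 0.34, adjusted p = 1.2e-07). The TDH, ENO and PDC genes have close paralogs. Of 8 acetate genes, ALD3, ALD4 (1.72), ACS1 and ALD6 rose, whereas ALD2, ALD5 and ACS2 fell (median 1.12). Of 11 glycerol genes, GCY1 (1.71) and GUT2 (1.62), of glycerol use, rose and GPP1 (-1.88) and GPP2, the phosphatases that form glycerol, fell, but 1 of the latter passed without 12 h replicate 1 or without any one 20 h library. Of 11 tested hexose transporters and kinases (22 listed), HXT5, a transporter of slowly growing cells, rose from 116, 230.4 and 160.1 CPM to 755, 659.6 and 578 CPM (1.96 ± 0.40, adjusted p = 0.00012) and HXK2, the main hexokinase, fell from 729, 676 and 801 CPM to 86.1, 246 and 277 CPM (-1.91). GLK1, glucokinase, had a change of 0.91 and lost the call without 12 h replicates 2 or 3 or 20 h replicates 1 or 3. HXT1 had 2482, 1518 and 1733 CPM and 1231, 1198 and 1441 CPM and HXT3 1024, 516 and 499 CPM and 973, 905 and 1254 CPM, and neither passed.

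Storage carbohydrate genes rose nearly as a block. Of 17 listed and tested trehalose and glycogen genes, 14 rose and 0 fell, with a median of 1.48. TSL1, a subunit of trehalose synthase, had 1000.4, 1558 and 1097 CPM at 12 h and 4812, 5199 and 5292 CPM at 20 h (2.06 ± 0.30, adjusted p = 2.8e-07). TPS1, the synthase itself, had 1326, 972 and 1097 CPM and 3391, 3087 and 3224 CPM (1.52). Genes that break trehalose down, NTH1 (0.92), NTH2 (1.37) and ATH1 (1.96), rose with those that make it. GAC1, which directs a phosphatase to glycogen synthase, rose by 2.65 and GLC3, the glycogen branching enzyme, by 2.06.

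Of 38 tested heat shock proteins and chaperones (40 listed), 19 rose and 6 fell (median 1.28). HSP104, the disaggregase, had 1101, 952 and 739 CPM at 12 h and 4410.0, 4246 and 4396 CPM at 20 h (2.23 ± 0.28, adjusted p = 2.3e-08). HSP82, the induced Hsp90, rose from 124, 205 and 160.1 CPM to 1259.6, 905 and 961 CPM (2.66), and SSA1, a cytosolic Hsp70 that overlaps YAL004W, from 449.8, 270.5 and 306 CPM to 1259.6, 1035 and 1221 CPM (1.79). The 6 that fell were SSB1, SSB2, SSZ1 and ZUO1, which work at the ribosome on nascent chains, and HSP10 (-1.67) and CPR3 (-1.57) of mitochondria, whereas HSP78 (2.53) and MDJ1 (1.33), mitochondrial chaperones too, rose. SSB1, which overlaps YDL228C, had 1621, 1102 and 2082 CPM at 12 h and 201, 276 and 204 CPM at 20 h (-2.81 ± 0.36, adjusted p = 2.5e-08). The times did not overlap for the genes whose levels are given here, as for 849 of the 873 differing genes.

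Of 25 tested genes of oxidative and nitrosative stress (29 listed), 5 rose and 0 fell (median 0.47). CTT1, cytosolic catalase, had 1652, 1493 and 1036 CPM at 12 h and 4149, 3927 and 4136 CPM at 20 h (1.55 ± 0.29, adjusted p = 3e-05). The others were TSA2 (peroxiredoxin, 1.34, called in the leave-one-out fits without 12 h replicate 2 only), SOD2, YAP1 and GPX1, which had 2 reads at 12 h and 23 at 20 h, a ratio of 8.84 with an exact 95% counting interval of 2.19 to 77.4. The count was 3, 2 and 2 without 12 h replicates 1, 2 and 3 and 1, 2 and 3 without 20 h replicates 1, 2 and 3, and without 20 h replicate 3 there were also 2 falls. GPX1 lost its call without 12 h replicates 2 or 3 or 20 h replicate 1. YHB1, of nitric oxide defence, had 969, 1067 and 961 CPM and 519, 418 and 692 CPM and did not pass.

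Of 26 tested genes in the list for the use of allantoin, urea, proline and GABA (29 listed), 6 fell, 4 rose and 16 did not pass. That list also holds glutamate and glutamine enzymes (GDH1, GDH2, GDH3 and GLN1), so its counts are not of those uses alone. Beside UGA1 and UGA2, GDH2, the glutamate dehydrogenase that releases ammonium, fell from 3559.6, 2815 and 2232 CPM to 568, 763 and 545 CPM (-2.19 ± 0.31, adjusted p = 1.5e-07), and DAL7, GLN1 and GDH1 fell. PUT1, the proline oxidase, rose from 3172, 4252 and 3598 CPM to 10384, 9907 and 10893 CPM (adjusted p = 4e-06), with PUT2, CAR1 and GDH3, the paralog of GDH1, but 2 of these 4 rose without 12 h replicate 3 or 20 h replicate 3. Of 19 tested permeases (27 listed), 5 rose, and UGA4 fell. OPT2, an oligopeptide transporter, rose from 636, 711 and 349 CPM to 2643, 2837 and 3525 CPM (2.41 ± 0.42, adjusted p = 9.8e-06). PTR2, the di- and tripeptide transporter, rose from 62, 35.1 and 42.4 CPM to 247, 280.2 and 155 CPM (2.34), and BAP2, AGP2 and MEP1 made up the 5, of which 3 were left without 12 h replicate 2 or 20 h replicate 1. GAP1, the general permease, had 1768, 1327 and 659 CPM and 1965, 1509 and 2646 CPM, and did not pass.

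In the lists of purine synthesis and of arginine, lysine, branched-chain, histidine and aromatic amino acid synthesis, many members fell and none rose. Of 37 tested genes for branched-chain amino acids, histidine, aromatic amino acids and related ones (41 listed), 28 fell and 0 rose (median -1.40). ILV5, of branched-chain synthesis, had 3854, 2614 and 4498 CPM at 12 h and 634, 517 and 366 CPM at 20 h (-2.84 ± 0.33, adjusted p = 3.2e-09), ILV3 changed by -2.43 and ARO4 by -2.46. Of 18 tested arginine and lysine genes (20 listed), 9 fell and 0 rose, with LYS12 (-2.21), LYS9 (-1.65) and ARG7 (-1.46) first. Without 12 h replicate 1 or 20 h replicate 1, 5 fell, and ARG7 lost its call in those fits and without 20 h replicate 2. A gene of this list rose without 12 h replicate 2 or 20 h replicate 3. TGACTC, the Gcn4 element, was in 59.5% of the windows of the former list and 50% of the latter, against 9.2% of all genes tested. Of 24 tested purine and one-carbon genes (26 listed), 17 fell and 0 rose (median -1.55). SHM2, serine hydroxymethyltransferase, had 2249, 1693 and 2397 CPM at 12 h and 204, 409.5 and 269 CPM at 20 h (-2.85 ± 0.36, adjusted p = 2.3e-08), and GCV2, of glycine cleavage, changed by -2.72. IMD2 and IMD3, close paralogs of GMP synthesis, changed by -3.00 and -2.99. With limma on log2(RPKM + 0.1) the counts of these lists were 13, 3 and 9.

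Of 27 tested genes of sulfate assimilation and methionine (32 listed), 15 fell and 1 rose (median -1.19). MET14, the kinase of the second step, had 101, 90.2 and 203 CPM from 13, 18 and 43 reads at 12 h and 2.87, 4.31 and 16.3 CPM from 1, 1 and 2 reads at 20 h (-4.29 ± 0.84, adjusted p = 8.1e-05). MET3 had 1086, 711 and 998 CPM and 103, 116 and 163 CPM, and MET5, of sulfite reductase, changed by -2.45. MET17, which takes up sulfide and overlaps YLR302C, had 1822, 1633 and 3871 CPM and 468, 565 and 716 CPM (-2.08). SSU1, the sulfite efflux pump, fell from 1435, 1257 and 933 CPM to 554, 444 and 684 CPM (-1.11 ± 0.35, adjusted p = 0.014), a call lost without 12 h replicate 1 and without 20 h replicate 2. The gene that rose was CBF1 (2.05), a factor that binds CACGTG and acts on this pathway, and its call was lost without 12 h replicate 2 or 3 or 20 h replicate 1 or 2. CACGTG was in 29.6% of the windows of the list, against 3.24% of all genes tested, and that of MET14, its largest fall, is shown with the element in capitals (R64, chrXI:439516-439635, minus strand, from 250 to 131 bases before the start). With limma on log2(RPKM + 0.1), 8 members fell.
MET14: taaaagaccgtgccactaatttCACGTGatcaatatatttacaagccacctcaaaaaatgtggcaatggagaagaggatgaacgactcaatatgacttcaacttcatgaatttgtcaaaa

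Some lipid genes passed the test, in both directions. Of 27 tested ergosterol genes (28 listed), 9 fell and 0 rose (median -0.62), among them ERG13 (1140.0, 626 and 702 CPM at 12 h and 235, 319 and 358 CPM at 20 h, -1.44 ± 0.33, adjusted p = 0.0006), ERG2 (-1.69) and ERG10 (-1.41). ERG2 lost its call without 12 h replicates 1 or 3 or 20 h replicate 1, and the count was 4 without 20 h replicate 1 and 4 with limma on log2(RPKM + 0.1). Of 12 tested fatty acid synthesis genes (14 listed), ELO2 (-2.04) and ELO3 (-1.65), which elongate fatty acids, fell and FAA1 (0.97), which activates them, rose. FAA1 lost its call without 12 h replicate 3 and ELO3 without 12 h replicate 2 or 20 h replicate 1. OLE1, the desaturase, had 3451, 2544 and 2284 CPM and 2671, 2879.8 and 2597 CPM. Of 12 tested genes of fatty acid oxidation and peroxisomes (20 listed), 6 rose and 0 fell (median 1.73). ADR1, a transcription factor of this pathway, had 7.76, 40.1 and 18.8 CPM at 12 h and 232, 216 and 277 CPM at 20 h (3.30 ± 0.48, adjusted p = 2.8e-07), and CAT2, carnitine acetyltransferase, had 31, 20 and 28.3 CPM and 146, 155 and 212 CPM (2.65). PXA2, a peroxisomal importer, changed by 3.04, from 3, 1 and 0 reads to 20, 21 and 7 reads. In inositol and phospholipid synthesis (17 tested of 22), INO1 rose and INM1, of inositol synthesis too, fell by 1.72 on the log2 scale, the latter not called without 12 h replicate 1 or 20 h replicate 2. ITR2, an inositol transporter, had 264, 301 and 235 CPM and 161, 194 and 179 CPM.

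Of 15 tested thiamine genes (23 listed), 7 fell and 0 rose (median -1.03). THI4, of the thiazole branch, had 4537, 3466 and 6570.1 CPM at 12 h and 855, 689.8 and 1596 CPM at 20 h (-2.23 ± 0.39, adjusted p = 1e-05), PHO3, the phosphatase that frees thiamine, had 667, 546 and 768 CPM and 123, 164 and 179 CPM (-2.11), and THI13, one of a family of near-identical genes, changed by -3.58. Without 20 h replicate 1, 4 fell. Of 9 tested zinc genes (11 listed), 4 fell, ADH4, ZRC1 (-1.59), ZRT1 (-1.58) and ZAP1, the activator of the others. Among 21 tested iron and copper genes (31 listed), FET3, the ferroxidase, changed by -1.92 and FRE5, a putative reductase, by 1.22, and ISU1, an iron-sulfur scaffold, had 690.2, 496 and 391 CPM and 1007, 724 and 569.9 CPM. A further gene rose without 12 h replicate 3 or without 20 h replicate 3. Of 19 tested members of the phosphate list (26 listed), PHM7, PHM8 (1.92) and CTF19 (1.65) rose and 0 fell, beside 11.6% and 12.2% of all genes tested. CTF19, which overlaps YPL017C, is a kinetochore protein that was in this list by mistake. PHM7 and PHM8 were thus the only phosphate genes of the list that rose. PHM8 lost its call without 20 h replicate 1.

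Wall genes changed in both directions. NCW2, a wall protein with a glycolipid anchor, had 147, 265 and 278 CPM at 12 h and 1237, 1811 and 1132 CPM at 20 h (2.57 ± 0.45, adjusted p = 1.1e-05). YPS1, an aspartic protease of the wall, had 419, 506 and 532 CPM and 2166, 2931 and 1653 CPM (2.21 ± 0.34, adjusted p = 8e-07). With PRY1 (2.12) and PUN1 they were the 4 of 21 tested PIR, yapsin and other wall genes (24 listed) that rose, and PRY2, CIS3, SVS1 and ECM33 fell, of which 2 passed without 12 h replicate 2 or 20 h replicate 2. Of 26 tested genes of glucan and chitin (32 listed), GSC2 (341, 185 and 226 CPM to 1030.1, 1574 and 1327 CPM, 2.40), the alternative glucan synthase, and CHS1 (132, 185 and 151 CPM to 617, 1065 and 569.9 CPM, 2.26), the chitin synthase of wall repair, rose. FKS1, the main glucan synthase of growing cells, was among the 6 that fell, with SMI1 (-1.82), GAS1, SCW10, CHS2 and EXG1, and 3 fell without 20 h replicate 1 or 20 h replicate 2. Of 10 tested mannoproteins (15 listed), SPI1 (155, 150.3 and 165 CPM to 669, 677 and 1392 CPM, 2.52), DAN4 (1.90), TIP1 (1.27) and SED1 rose. SED1, an abundant stress-induced wall protein, had 4451, 12481 and 5741 CPM and 17462, 14709 and 16885 CPM (1.11 ± 0.35, adjusted p = 0.015), and its call was lost without 12 h replicate 1 or 12 h replicate 3. TIR2 (-2.20), TIR3 and CWP1 fell, 1 of them without 12 h replicate 2 or 20 h replicate 2. None of the 24 seripauperin genes passed the filter, with 3 reads at 12 h and 4 at 20 h over all of them.

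Of 7 tested flocculins and adhesins (11 listed), FLO10 rose from 38.8, 75.1 and 47.1 CPM to 169, 185 and 155 CPM (1.63 ± 0.43, adjusted p = 0.0033). FLO11, the main adhesin of wine yeast films, had 62, 45.1 and 28.3 CPM and 51.6, 34.5 and 48.8 CPM, and BSC1 139.6, 185 and 89.5 CPM and 189, 116 and 57 CPM, and they did not pass, with overlapping libraries. Of 13 daughter-specific and separation genes, 5 rose and 0 fell, CTS1, the chitinase that separates cells, from 799, 1708 and 1017 CPM to 3460.3, 3388 and 2882 CPM (1.46 ± 0.30, adjusted p = 0.00013), DSE1 (1.58), SUN4 (1.42), DSE2 and PRY3. The count was 3 without 12 h replicate 1 or 12 h replicate 3, the latter without DSE1. Of 34 tested cyclin, histone and replication genes (42 listed), 9 fell and 0 rose (median -0.78), CLB2, a mitotic cyclin, with -2.40, HTA2, a histone, -1.92 and MCM5, of the replicative helicase, -1.86. MCM5 was called in the fits without 12 h replicate 1 or 20 h replicate 1 only, and CLB2 in all but that without 20 h replicate 1. The count was 5 without 12 h replicate 2, 2 without 20 h replicate 1 and 1 with limma on log2(RPKM + 0.1).

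Calcineurin is a phosphatase switched on by calcium and calmodulin, and it activates the factor Crz1. CRZ1 had 139.6, 105 and 118 CPM at 12 h and 341, 341 and 358 CPM at 20 h (1.53 ± 0.39, adjusted p = 0.0023). RCN2, an inhibitor of calcineurin, had 85.3, 85.1 and 108 CPM and 296, 522 and 415 CPM (2.12 ± 0.40, adjusted p = 4e-05). PMC1, the vacuolar calcium pump, had 217, 145 and 268 CPM and 619.8, 802 and 741 CPM (1.77 ± 0.31, adjusted p = 9e-06). The times did not overlap for any of these genes, which held for 849 of the 873 differing genes and so adds little to the calls. Of 16 tested calcineurin and calcium genes (20 listed), 5 rose and 0 fell, the others being GSC2 and CMK2. The study chose 28 genes in strain 11 for a higher level in mixed than in single culture and no such change in strain 12, on these samples, so their count is no independent evidence of a direction. All 28 were tested, 16 rose and 1, DLD3, fell (median 1.15), FET4 (31, 55.1 and 61.2 CPM to 269.7, 439.7 and 187 CPM, 2.56), a low-affinity iron transporter, BAG7 (2.40) and GYP7 (2.25), of vesicle transport, most. DLD3 was not called without 12 h replicate 1, and limma on log2(RPKM + 0.1) called 10 higher. In strain 12 grown alone 4 of the 28 rose and 3 fell, beside 13.2% and 12.6% of all genes tested. In strain 11 in mixed culture none of the 28 passed, beside 5.78% of all genes tested. The test of the difference passed for 1 gene between the cultures and for 0 between the strains, beside 2.45% and 0.654% of all genes tested.

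Of 25 tested sulfite, drug and weak acid efflux genes (28 listed), 9 rose and SSU1 fell (median 0.58). PDR15, a drug transporter of the stress response that overlaps YDR406W-A, had 295, 401 and 118 CPM at 12 h and 1435, 754 and 1180.5 CPM at 20 h (2.06), YOR1 had 225, 195 and 146 CPM and 619.8, 629 and 635 CPM (1.74), and YGP1, TPO1, TPO2, TPO4, QDR3, PDR10 and SPI1 rose too. SPI1 was counted among the mannoproteins above too, and neither it nor YGP1 is a transporter. The count is thus not one of efflux pumps alone. Another gene joined SSU1 among the falls without 12 h replicate 3. Among 13 tested genes of proton, sodium and potassium transport (17 listed), PMA2, YRO2 (605, 270.5 and 400.3 CPM to 2410.2, 1526 and 1335 CPM, 2.07), HAL5 (1.79) and TRK2 rose and PMA1 fell, the last not called without 12 h replicate 1 and joined by 2 other genes without 12 h replicate 3. Of 19 tested vacuolar and autophagy genes (27 listed), 5 rose, PRB1, the vacuolar protease B, from 1605, 1082 and 1130.3 CPM to 3368, 3901 and 3786 CPM (1.54 ± 0.30, adjusted p = 6.2e-05), ATG8 (2.48), ATG9 (1.62), ATG1 and ATG19. The count was 2 without 12 h replicate 1, 20 h replicate 1 or 20 h replicate 2 and 3 without 12 h replicate 3, and ATG9 lost its call without 12 h replicates 1 or 2 or 20 h replicates 1 or 2.

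Most respiratory genes did not pass, and neither did 2797 of all 3670 genes tested. In the respiratory chain list 6.06% rose and 0% fell. In the list of the tricarboxylic acid and glyoxylate cycles 8.33% rose and 12.5% fell, beside 11.6% and 12.2% of all genes tested. Of 33 tested nuclear genes of the respiratory chain and ATP synthase (38 listed), CYC7, the hypoxic cytochrome c, had 15.5, 5.01 and 18.8 CPM at 12 h and 181, 108 and 179 CPM at 20 h (3.50 ± 0.59, adjusted p = 5.4e-06) and NDE2, an external NADH dehydrogenase, changed by 1.85, a call lost without 12 h replicates 1 or 3 or 20 h replicate 1. ATP1 had 1962, 1352 and 1422 CPM and 1481, 1272 and 1482 CPM. Of 24 tested genes of the tricarboxylic acid and glyoxylate cycles (28 listed), MDH2, cytosolic malate dehydrogenase, rose (147, 75.1 and 61.2 CPM to 568, 310.4 and 505 CPM, 2.34), and IDP1 (-1.70) and PYC1 (-1.30) fell. IDP2 had 1 read at 12 h and 25 at 20 h, a ratio of 19.2 with an exact 95% counting interval of 3.15 to 789, and was not called without 12 h replicates 2 or 3 or 20 h replicate 1. Of 17 tested hypoxic genes (23 listed), 5 rose, CYC7, FET4, MOT3 (1.34), ROX1 and HAP1. The last 3 are regulators of this group, so the count is not one of regulated genes alone. The count was 3 without 12 h replicate 1 or 20 h replicate 2, both times without MOT3.

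Strain 12 grown alone changed over the same interval in 945 genes (25.7%), with 484 higher (13.2%) and 461 lower (12.6%). These libraries share no sample with the mixed culture, and at 20 h they were shallower (35400 to 96123 reads on genes). Of the 873 genes of the mixed culture, 452 differed in the same direction in single culture, which is 51.8% of the mixed and 47.8% of the single calls, and 9 in the opposite direction. The difference between the changes was itself significant for 90 genes (2.45%), 33 of them (0.899%) with a more positive change in the mixed culture and 57 (1.55%) with a more negative one. This count was 33 without mixed 12 h replicate 1, 57 and 31 without mixed 20 h replicates 1 and 2, 45, 49 and 174 without single 12 h replicates 1, 2 and 3, and 53 and 59 without single 20 h replicates 1 and 3. By lists, ribosomal proteins fell in both cultures, with medians of -2.34 and -2.32 for the subunits in single culture, and 1 of the 99 tested members differed between the cultures. Ribosome biogenesis factors had a median of -0.25 and glycolytic genes one of -0.20 in single culture, and 3 and 5 of their members differed.

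ARO10, the decarboxylase that turns aromatic and branched keto acids into aldehydes of the Ehrlich pathway, had the largest named difference. It had 23.3, 70.1 and 56.5 CPM at 12 h and 172, 237 and 187 CPM at 20 h in mixed culture, but 2062, 596 and 2587 CPM and 36.3, 84.6 and 23.7 CPM in single culture. It thus rose in one culture (1.91, adjusted p = 0.0038) and fell in the other (-5.41, adjusted p = 2.6e-10), with a difference of 7.32 ± 0.80 (adjusted p = 4.2e-09). ARO9, the aromatic transaminase of the same route, had 676, 209.5 and 1136 CPM in single culture at 12 h against 23.3, 0 and 0 CPM in mixed culture, the latter from 3 reads in all. It differed between the cultures by 6.53, and its rise in the mixed culture, from 3 reads to 28, is a ratio of 7.18 with an exact 95% counting interval of 2.22 to 36.9 and a call lost without 12 h replicates 2 or 3 or 20 h replicate 2. Of 16 tested Ehrlich pathway and ester genes (18 listed), ARO9, ARO10 and PDC6 rose and BAT1 (-1.67) and ARO8 (-1.38), transaminases of branched-chain and aromatic amino acids, fell in mixed culture. YHR137C-A, which overlaps ARO9 and may share its reads, differed by 6.36. NCW2 rose in mixed culture and had 228, 314 and 164 CPM at 12 h and 12.1, 0 and 47.4 CPM at 20 h in single culture (-3.22, adjusted p = 0.00086), a difference of 5.79 ± 0.85 (adjusted p = 1.4e-05). GAT2, a GATA zinc finger protein, had 62, 195 and 217 CPM and 691, 634 and 399 CPM in mixed culture and 385, 887 and 282 CPM and 133, 28.2 and 107 CPM in single culture (difference 4.16 ± 0.66, adjusted p = 5.3e-05). CHS1, which rose in mixed culture as given above, had 127, 153 and 65.7 CPM and 48.5, 84.6 and 71.1 CPM in single culture, so that at 20 h every mixed library was above every single one (difference 3.08, adjusted p = 0.0056).

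On the negative side, HSP12 rose in both cultures, from 109, 55.1 and 65.9 CPM to 904, 535 and 611 CPM in the mixed and from 6.15, 0 and 19.7 CPM to 1332, 648 and 960.1 CPM in the single culture. The levels at 20 h overlapped and those at 12 h did not, and the difference was -3.63 ± 0.79 (adjusted p = 0.0051), a call lost without single 12 h replicate 1. ENO1 fell in mixed culture (2846, 1217 and 1696 CPM to 539, 573 and 1034 CPM, -1.44) and rose in single culture (569.8, 435 and 1471 CPM to 1817, 1353 and 1861 CPM, 1.04), a difference of -2.47 ± 0.54 (adjusted p = 0.0051) that was not called without mixed 12 h replicate 1. VMA3, a subunit of the vacuolar proton ATPase, differed by -2.66, with 166, 314 and 597 CPM and 715, 310.1 and 616 CPM in single culture, and TDH1 by -2.76. TDH1 did not pass in mixed culture (3032, 1287 and 4342 CPM and 1681, 1233 and 2548 CPM) and rose in single culture. THI4 and NSR1 fell in mixed culture and did not pass in single culture (0.01 and 1.08), with differences of -2.23 (adjusted p = 0.011) and -3.51 (adjusted p = 0.0078).

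**Figure D4:**
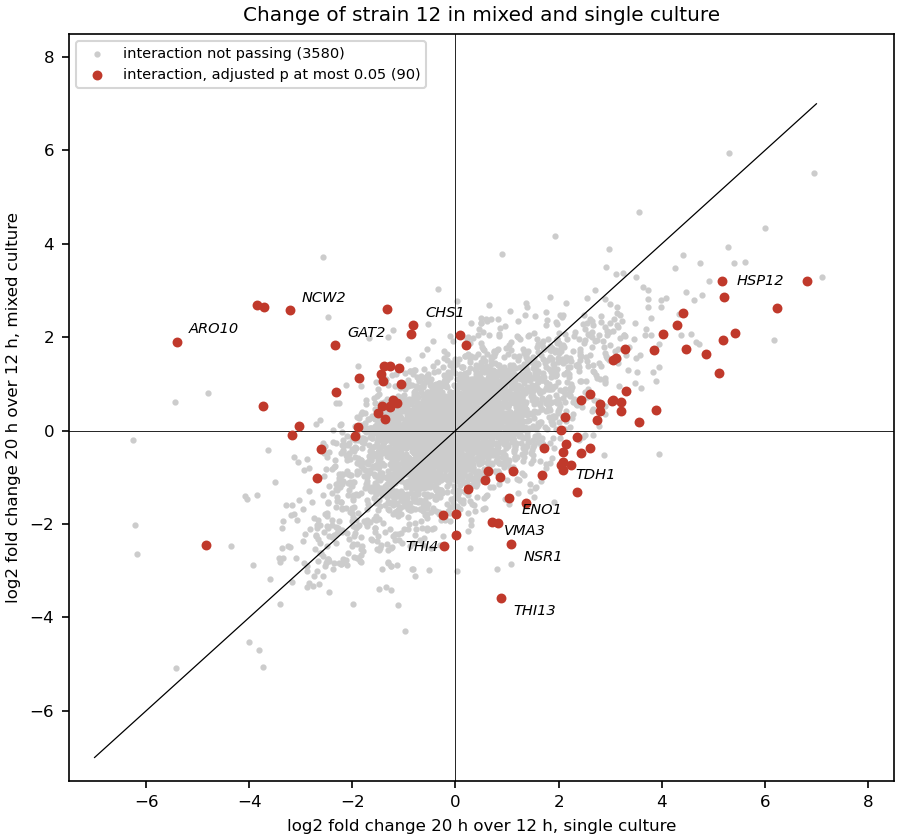
Log2 fold change of strain 12 from 12 to 20 h in mixed culture against that in single culture for the 3670 genes tested, with the line of equal change. The 90 genes in red differ between the cultures: NCW2, ARO10 and GAT2 lie above the line and HSP12, ENO1, VMA3, NSR1 and THI13 below it.

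Strain 11, sorted from the mixed cultures, changed in 212 genes (5.78%), 112 higher (3.05%) and 100 lower (2.72%), and its 20 h libraries held 67295 to 120796 reads on genes. Of its calls 183 (86.3%) had the same direction in strain 12, which is 21% of the calls of strain 12, and 0 were opposite. PMA2 rose alike (4.32, adjusted p = 4.9e-10), and UGA4 (-3.42) and ADH4 (-2.38) fell. The change itself differed between the strains for 24 genes (0.654%), 14 more positive and 10 more negative in strain 12. This count was 15 and 0 without strain 11 12 h replicates 1 and 2, 9 and 2 without strain 11 20 h replicates 1 and 2, 7 and 5 without strain 12 12 h replicates 1 and 3 and 12 and 6 without strain 12 20 h replicates 1 and 2. Each gene named next was among the calls lost without strain 11 12 h replicate 2.

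INO1 had 617, 697 and 544 CPM at 12 h and 1134, 653 and 829 CPM at 20 h in strain 11, and the change differed by 2.58 ± 0.54 (adjusted p = 0.011). FMP45 had 819.7, 1274 and 802 CPM and 1828, 2003 and 1689.7 CPM in strain 11 (difference 2.66, adjusted p = 0.011), NCW2 1437, 2259.9 and 1984 CPM and 1828, 2418 and 2315 CPM (difference 2.37, adjusted p = 0.044). YJL213W, an uncharacterized gene, differed by 2.71. In these genes every 12 h library of strain 11 was above every 12 h library of strain 12. ADH4 had 1974, 1056 and 2148 CPM and 486, 193 and 309 CPM in strain 11 and a difference of -2.69 ± 0.54 (adjusted p = 0.011), and UGA1 differed by -2.37, ASC1 by -2.46 and SSB2 by -2.37, each with a lower mean level in strain 11 than in strain 12 at 12 h. At the marker share of strain 11 given above, its RNA would give 78.3 to 222 CPM of NCW2 and 31.2 to 88.4 CPM of INO1 in the 20 h libraries of strain 12, and at the upper 95% counting limit of that share 283 to 648 and 113 to 258 CPM. The measured levels were 1132 to 1811 CPM for NCW2 and 326 to 634 CPM for INO1. In 20 h replicate 3, INO1 had 326 CPM beside an upper value of 258 CPM, and its 12 h levels were 40.1 to 69.8 CPM. For CHS1 the upper values were 205 to 469 CPM, with 569.9 to 1065 CPM measured and 132 to 185 CPM at 12 h. For FET4 they were 62.5 to 143 CPM, with 187 to 439.7 CPM measured and 12 h levels as given above. Whether strain 11 RNA made part of these rises was not tested, and the upper values cover counting error of the marker reads only.

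**Figure D5:**
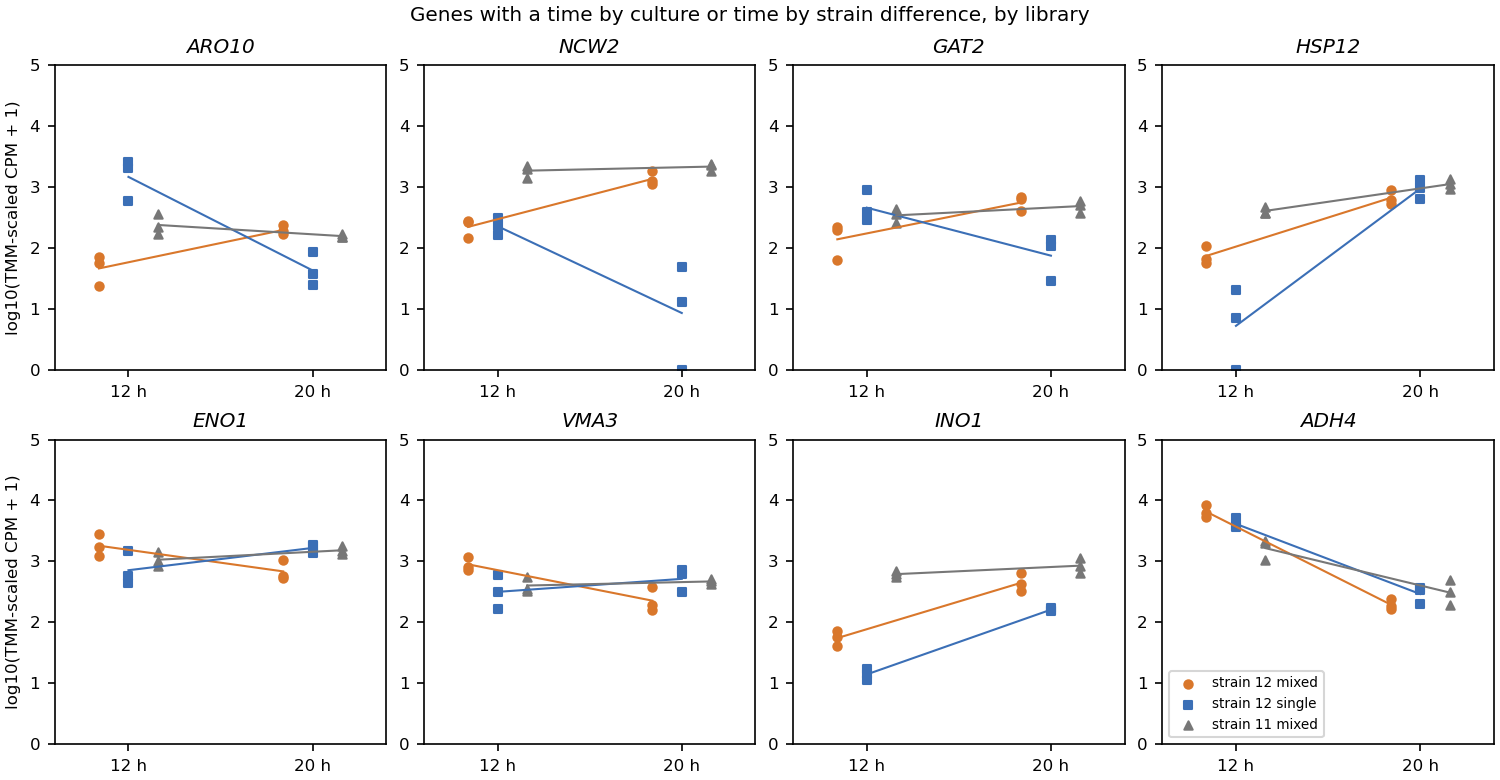
Log10(TMM-scaled CPM + 1) of 8 genes at 12 and 20 h, 1 point per library (circles, strain 12 in mixed culture; squares, strain 12 in single culture; triangles, strain 11 in mixed culture), with lines through the means of the 3 plotted values. ARO10, NCW2 and GAT2 go up in mixed and down in single culture of strain 12, ENO1 and VMA3 go the other way by their means, and INO1 and ADH4 differ in slope between the strains.

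At 30 h, in libraries of the mixed culture that entered the fit but no comparison here, PMA2 had 3935 to 4624 CPM, HSP30 883 to 1490.0 CPM and PUT1 11338 to 13989 CPM. UGA4 had 46.3 to 76.5 CPM, ADH4 169.8 to 314 CPM and RPL3 409 to 686 CPM. Relative to the values at 12 h, these genes were still on the side where they had been at 20 h. Other genes were not so in every library. NCW2 had 1648, 425 and 235 CPM, CHS1 723, 169.8 and 196 CPM and ARO10 209, 23.2 and 39.2 CPM at 30 h. ENO1 had 855, 1019 and 2117 CPM. NCW2 in replicate 3, CHS1 in replicate 2, ARO10 in replicates 2 and 3 and ENO1 in replicate 3 no longer lay beyond their 12 h levels on the side of 20 h.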

How the data were processed

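The authors deposited, per library, counts of reads per gene with the RPKM of each gene, and counts per exon, on the S. cerevisiae build sacCer2 (the submitters' processing notes name it with Cufflinks 1.3.0 and Cuffdiff). Whether counting used strand is not given in the sources used here, so overlapping and antisense genes (1339 of 6717) cannot be told apart. The deposited RPKM values were recomputed from the counts for 100% of genes. RNA was amplified before sequencing without molecular identifiers, so intervals cover counting error only.

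The gene counts of all 36 libraries (12 groups of 3, from the labels) were fitted with edgeR 4.0.16 in R 4.3.3: filterByExpr (3670 genes), TMM, a quasi-likelihood fit with 1 coefficient per group, and contrasts for the change from 12 to 20 h and its 2 interactions. Calls had a p of 0.05 or less after Benjamini-Hochberg adjustment. A common estimate of the spread over groups was used because each group has 3 libraries.

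The members, the 42 gene lists and the tests were chosen with earlier results of these data known. Named genes were the 12 largest rises and falls with a mean count of at least 50 and no overlap of the times, up to 3 per list, 4 per direction of each interaction, and SSU1, YHB1, OPT2, BSC1, SED1, TIP1, FLO11 and CRZ1. Other genes were added to show a list or after seeing their values. Gene names and promoters came from the RefSeq annotation of R64 (6025 of 6717 identifiers matched). Motifs were searched in 3544 windows of 250 bases before to 50 after the start. Reads of strain 11 were estimated from genes whose highest level in strain 12 grown alone was at most 1 part in 50 of the mean level in strain 11 grown alone. Alternatives were DESeq2 1.42.0, RLE factors, limma 3.58.1 on log2(RPKM + 0.1) and log2(RPKM + 1), no filter, exon counts, 6 libraries alone, a replicate block, retrotransposon genes left out, and each library left out in turn. The fit was tested on simulated data (200 genes changed).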

Additional observations from a re-analysis of the deposited data

Results flagged for a closer look

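Results are given here because the change from 12 to 20 h itself differed between groups of libraries by an interaction term (edgeR's quasi-likelihood test with Benjamini-Hochberg adjustment). Between mixed and single culture of strain 12, 90 genes met this condition. Between strain 12 and strain 11 in mixed culture, 24 did. In the following, a positive value is a more positive change in strain 12 in mixed culture.

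Between the cultures, the named genes with the largest positive differences were ARO10 (7.32, Ehrlich pathway decarboxylase), YHR137C-A (6.36, overlapping ARO9), NCW2 (5.79, wall protein) and GAT2 (4.16, GATA factor). Those with the largest negative differences were HSP12 (-3.63, membrane-protecting stress protein), TDH1 (-2.76, glyceraldehyde-3-phosphate dehydrogenase), VMA3 (-2.66, vacuolar proton ATPase) and ENO1 (-2.47, enolase). At 12 h, YHR137C-A had 0 to 15.5 CPM in mixed culture and 218 to 1457 CPM in single culture.

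Between the strains, they were YJL213W (2.71, uncharacterized), FMP45 (2.66, membrane protein), INO1 (2.58, inositol synthesis) and NCW2 (2.37), and on the negative side ADH4 (-2.69, alcohol dehydrogenase), ASC1 (-2.46, ribosomal protein), UGA1 (-2.37, GABA transaminase) and SSB2 (-2.37, ribosome-bound chaperone).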

How the results depend on the processing

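No result of a named gene that was called in the main fit changed direction under any alternative. Of 2566 values for 148 such results, 2363 kept their call and 203 lost it. Named genes that did not pass the main test, among them RPA14, ATP1, BSC1, FLO11 and YHB1, were not compared in this way. The 873 differing genes (425 higher and 448 lower) became 633 to 779 (294 to 365 and 332 to 414) when one library was left out. They became 518 (174 lower) with limma on log2(RPKM + 0.1), 539 (183 lower) with limma on log2(RPKM + 1), and 266 were higher without the shallowest library of each time, an alternative chosen after seeing the data. The share of higher calls, 48.7%, was 66.4% and 66.0% in these limma fits. Counts from DESeq2 (907), RLE factors (864), exon counts (871), no filter (847) and the 6 libraries alone (1059) were within 1.5 times. The 90 genes that differed between cultures became 31 to 174 with one library left out, 164 with DESeq2, 45 and 44 with limma at pseudocounts of 0.1 and 1, and 34 without the shallowest libraries. The 24 that differed between strains became 0 to 24, 60, 5, 4 and 3 in the same settings, and 45 without the filter. The causes were not tested. Medians of the glycerol, TIR and DAN, inositol, iron, phosphate and PIR lists changed sign in some settings. On simulated data with the depths of this comparison, 86 of the 186 changed genes that passed the filter (46.2%) were recovered. The share was 14.1% at a log2 change of 1 and 82.7% at 2, so moderate changes were often not detectable at this depth.

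Whether equal replicate numbers mark the same fermentation is not given, and the study took aliquots at 3 phases of its fermentations. The deviations of same-numbered libraries from their group means correlated at -0.113, -0.0327 and -0.142, and no library correlated best with its own number. With 3 libraries per time these correlations cannot exclude pairing. The main fit treated all libraries as independent, also those of the strains sorted from mixed cultures. With a replicate block, 822 genes differed in the fit of 36 libraries (393 higher and 429 lower) and 905 in that of 6 (406 and 499), 76 between cultures and 23 between strains.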

Other observations

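Of the 873 genes that differed in strain 12 between 12 and 20 h of the mixed culture, 465 were in none of the lists described. Among those that rose, BDH2, an alcohol dehydrogenase next to the butanediol dehydrogenase gene, rose from 101, 175 and 118 CPM to 1113, 733 and 919.9 CPM (2.79, adjusted p = 2.9e-08, edgeR's quasi-likelihood test), GND2, the minor phosphogluconate dehydrogenase, by 2.49, RTN2, a reticulon of the endoplasmic reticulum, by 2.48 and OM45, of the outer mitochondrial membrane, by 2.46. XBP1, a repressor induced by stress, rose from 93.1, 185 and 108 CPM to 858, 457 and 602 CPM (2.29, adjusted p = 6.3e-06). Each of these genes was higher in all 3 libraries at 20 h than in any at 12 h. The times did not overlap for 849 of the 873 differing genes. Among transcription factors, GAT2 and MGA1 (1.78) rose as well.

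Among those that fell, MAE1, the mitochondrial malic enzyme, changed from 2497, 2068 and 2882 CPM to 491, 591 and 488 CPM (-2.24, adjusted p = 2.2e-06). SEC53 (-2.05) and PSA1 (-1.53), which make activated mannose for glycosylation, fell together, as did the aminoacyl-tRNA synthetases DED81 (-1.62, asparagine), GRS1 (-1.62, glycine) and VAS1 (-1.55, valine). URA5, of pyrimidine synthesis, changed by -2.02, ADK1, adenylate kinase, by -1.98, TMA19, a ribosome-associated protein, by -1.85 and GSP1, the Ran GTPase, by -1.81. These genes were picked from the differing genes after their values were seen.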
